A study of Mus musculus with 6 samples.

Results

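C2H2 zinc finger genes were examined in an Argonaute (Ago) HITS-CLIP study of mouse macrophages, an assay in which RNA cross-linked to Ago is immunoprecipitated and sequenced. They were chosen by symbol in the GENCODE vM1 annotation of build mm9. A gene was taken if its symbol was Zfp followed by digits, or began with Klf or Zbtb and a digit. The AU-rich decay factors Zfp36, Zfp36l1 and Zfp36l2, whose fingers are of another type, and Zfp207 were left out. Of the 6270 footprints of the table, 74 overlapped such a gene on its own strand, and they lay on 24 of the 2223 genes with a footprint. The Klf family gave 25 footprints on 5 genes, the Zbtb family 11 on 4 genes and the Zfp symbols 38 on 15 genes.

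The libraries came from bone-marrow-derived macrophages of C57BL/6 mice aged 6 to 12 weeks. There were 3 libraries from Apobec1-/- mice (KO) and 3 from wild-type littermates (WT). Apobec1 encodes an enzyme that deaminates cytidines of mRNA to uridines. In both genotypes the cells matured for 7 days in M-CSF (20 ng/mL, 40 ng/mL in later feeds), and the Ago antibody was 2A8. The labels speak of 3 littermate pairs and do not say that a library is 1 mouse.

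For each footprint the table gives 1 Ago occupancy per genotype, which is the authors' ratio of footprint signal to the RNA-Seq expression of its transcript. It also counts the KO and the WT libraries in which the footprint was found. There are no values per library and no read counts, so depth is unknown, and no KO to WT difference below has a replicate check or a p-value. In place of a test, a 2-fold difference (log2 ratio of 1 or beyond, up or down) is called. Ratios below are the log2 of KO over WT. Footprints of 1 gene may share the expression value they were divided by, and its part in any ratio was not tested. Of the 68 KO values above 0, 17 (25.0%, against 33.3% over the table) were equal to that of another footprint, among them all 3 of Klf10. Of the 74 WT values 14 were (18.9%, against 18.6%).

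C2H2 zinc finger proteins form the largest class of transcription factors in mammals, and each finger folds around a zinc ion held by cysteine and histidine pairs. Klf proteins bind GC-rich promoter elements through their fingers and act as activators or repressors, several of them in myeloid cells. Zbtb proteins join such fingers to a BTB domain that recruits corepressors, and many Zfp proteins are repressors that work through corepressor complexes. Ago is guided by the seed of a miRNA to matching sites, mostly in 3′ UTRs. Translated coding sequences were searched for the finger pattern, in which cysteines 2 to 4 residues apart and histidines 3 to 5 residues apart flank 12 residues. It was present in 23 of the 24 proteins, with a median of 3 and at most 15 fingers (Zfp871). Zfp703, whose human counterpart is amplified in breast cancer, held none.

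The 74 footprints held 18 sites, 7 nt long, for 12 of the 24 miRNA families searched. The sites lay in 17 footprints on 13 genes. They are printed because Ago is in general guided to its targets by matches of this kind. Whether Ago used these sites was not tested. Mature miRNAs are from RefSeq (GRCm38.p6), with the seed, bases 2 to 8, in capitals. All sequences run 5′ to 3′.
miR-16-5p: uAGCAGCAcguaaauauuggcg
let-7a-5p: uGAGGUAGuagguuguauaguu
miR-23a-3p: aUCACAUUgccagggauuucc
miR-27a-3p: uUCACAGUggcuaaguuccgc
miR-24-3p: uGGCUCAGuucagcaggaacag
miR-29a-3p: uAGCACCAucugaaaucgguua
miR-21a-5p: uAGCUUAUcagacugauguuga
miR-101a-3p: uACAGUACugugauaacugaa
miR-17-5p: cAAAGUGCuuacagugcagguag

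The windows below are 30 nt of mm9 from within the footprints, on the strand of the gene, with the 7 nt that pair with the seed in capitals. They were chosen as those of the genes that the results turn on.
Zbtb7a, miR-15/16 (chr10:80613957-80613986, plus): tgctgagtagtTGCTGCTctttgccttcct
Zfp622, miR-15/16 (chr15:25927119-25927148, plus): aatggttccttTGCTGCTacttcatttgtt
Zfp710, let-7 (chr7:87237135-87237164, plus): acccctgcaaaCTACCTCttcccacaatga
Zbtb34, miR-23 (chr2:33263358-33263387, minus): ccatgttagacAATGTGAagacagccacag
Zbtb34, miR-27 (chr2:33263314-33263343, minus): acattaccccattgcacaaACTGTGAagat
Zfp871, miR-24 (chr17:32909592-32909621, minus): actcttaactgCTGAGCCccctcaaaccct
Zfp91, miR-29 (chr19:12843861-12843890, minus): aTGGTGCTcacttgcttggaagcaggctcc
Klf6, miR-21 (chr13:5867248-5867277, plus): taacccattgtATAAGCTgtatttacaaat
Klf6, miR-101 (chr13:5867889-5867918, plus): cacctggcattGTACTGTatcaatgtataa
Klf10, miR-17 (chr15:38224883-38224912, minus): taaaatacactGCACTTTgtttagaaaaaa

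A site of any of the 24 families was in 23.0% of the 74 footprints (95% Wilson interval 14.9% to 33.7%), against 18.7% of all footprints of the table. The interval holds the share of the whole table, but it is a description over footprints that share genes and is not a test. Of the 17 with a site, 5 were at least 2-fold higher in KO (against 18.3% of all footprints with a site) and 2 at least 2-fold lower (24.4%). Their median log2 ratio was -0.21, against -0.05 for all footprints with a site. Of the 57 without one, 13 were higher (background 19.0%) and 16 lower (24.2%), with a median of 0.09, against -0.03. By family the footprints with a site were 3 of 25 for Klf, 2 of 11 for Zbtb and 12 of 38 for Zfp. The miR-15/16 site was the most frequent, in 3 footprints on Zbtb7a, Zfp622 and Zfp710. The let-7, miR-17, miR-29 and miR-101 families each had 2. Zbtb34 alone held sites of more than 1 family in a single footprint, for miR-23 and miR-27, whose genes lie in 1 cluster with that of miR-24. An A stood opposite base 1 of the miRNA in 6 of the 18 sites. The middle of a site was 0.5 to 66.5 nt from the middle of its footprint, with a median of 16.75 nt. The miR-15/16 site (TGCTGCT) overlaps that of the miR-103 family (ATGCTGC), which was in none of the 74. The families without a window above that had a site were miR-19 (Zfp516), miR-142-5p (Zfp263, ACTTTAT) and miR-146 (Zfp91, AGTTCTC). Only the transcribed strand was searched. A match is a description of the letters and not evidence of binding by that miRNA, and the table gives no miRNA levels.

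All 74 footprints overlapped an annotated 3′ UTR, and none overlapped a second gene on its strand. The shortest was 63 nt, the longest 171 nt and the median 74 nt, against a median of 72 nt in the whole table. With the 3′ UTR cut into 3 equal parts, 29 lay in the first, 23 in the middle and 22 in the last. The first footprints of Zbtb7a and Zfp710 and that of Zbtb43 reached upstream out of the 3′ UTR, with 32, 59 and 15 nt within it. Neighbouring footprints on a gene were 85 to 1689 nt apart from middle to middle, with a median of 282.5 nt in 50 pairs, and 1 pair overlapped. The AAUAAA poly(A) signal, searched as AATAAA, was in 6 footprints (8.11%; 7.00% of all footprints). The AU-rich pentamer ATTTA was in 7 (9.46%; 11.9%), and the Pumilio motif TGTANATA in 2 (2.70%; 3.81%). Motifs were searched on the transcribed strand only.

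The annotation names 392 coding genes that meet the rule, and 24 of them (6.12%) had a footprint, against 9.77% of all coding genes. The share was 5 of 17 for Klf, 4 of 37 for Zbtb and 15 of 338 for Zfp. A gene without a footprint is not shown to be unbound, since the table lists high-confidence footprints alone and expression was not analysed here.

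Median occupancy of the 74 footprints was 0.565 in KO and 0.464 in WT. The middle 50% lay between 0.273 and 0.853 in KO and between 0.249 and 0.783 in WT. The median of the whole table was 0.377 in KO and 0.406 in WT. The strongest footprint in KO was that of Zfp217 at 3.25, and the strongest in WT was that of Zfp516 at 2.58. By summed occupancy, Klf13 (6.85 in KO and 7.98 in WT), Klf6 (5.45 in KO and 8.55 in WT) and Zbtb7a (7.66 in KO and 2.32 in WT) led the 24 genes. Klf6 carried 14 footprints, which ranked 16th among all genes of the table, and Zfp710 carried 11. In all, 14 of the 24 genes had at least 2 footprints.

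**Figure D1:**
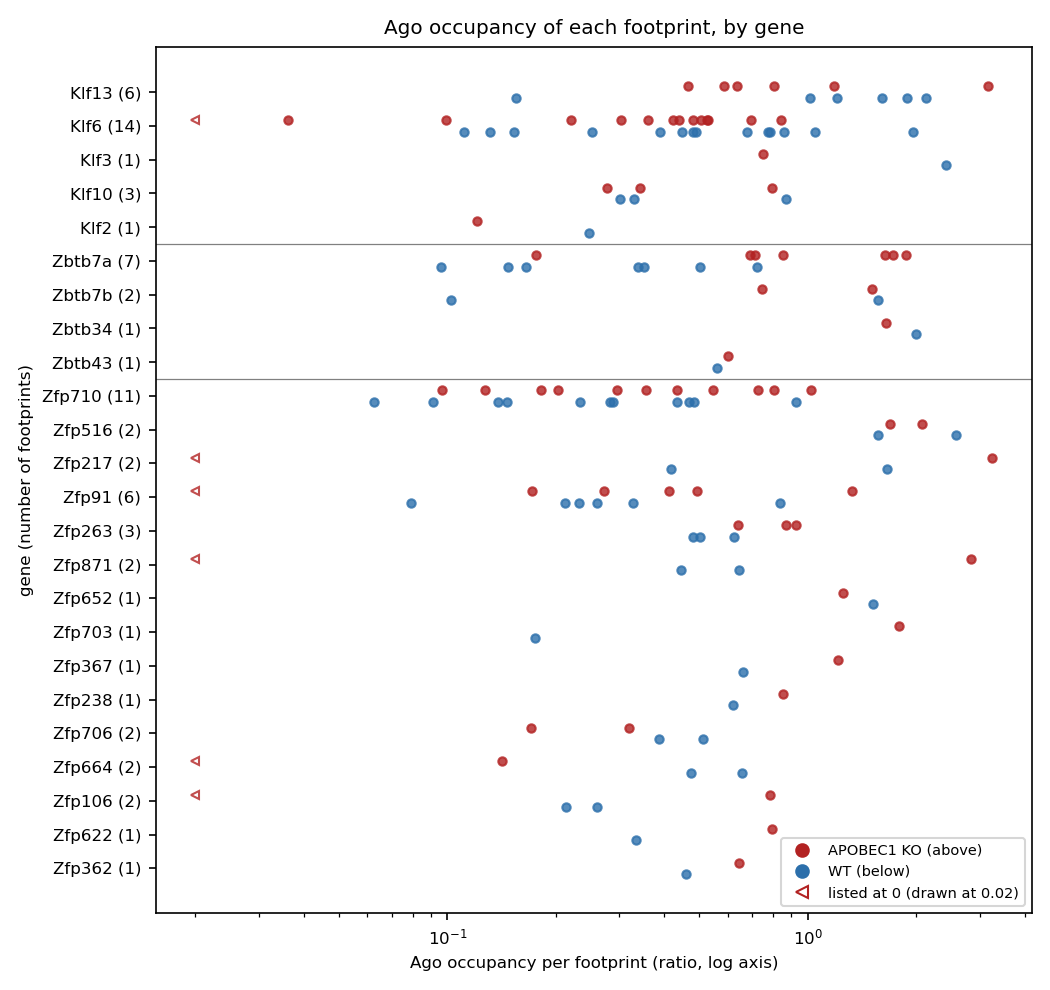
Ago occupancy of each of the 74 footprints on a log axis, by gene, with the number of footprints in brackets, KO drawn above WT, and values listed at 0 as open triangles. The WT points of Klf3 (2.41) and Klf2 (0.248) lie to the right of their KO points (0.752 and 0.120), while the KO point of Zfp703 (1.79) lies to the right of its WT point (0.175).

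Over all 74 footprints the log2 ratio of KO over WT had a median of 0.06 (quartiles -0.93 and 0.98), against -0.04 in the whole table, and 39 were higher in KO by any amount (52.7%, against a background of 48.7%). At least 2-fold higher in KO were 18 of 74 (24.3%), against a background of 18.9% of all footprints. At least 2-fold lower were also 18 (24.3%), against 24.2%. The 68 above 0 in both genotypes gave 18 higher and 12 lower past 2-fold, with backgrounds of 19.8% and 20.5%. By summed occupancy 4 of 24 genes were at least 2-fold higher in KO (background 11.7%) and 3 at least 2-fold lower (17.9%). As a whole, footprint calls went both ways in equal number, and the share lower in KO was that of the table. Among the 45 with a mean of KO and WT not below the median of the table, 12 were higher and 7 lower, against 20.9% and 20.0% of all such footprints. The 3 families differed in their counts, as given next, and the difference between them was not tested.

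**Figure D2:**
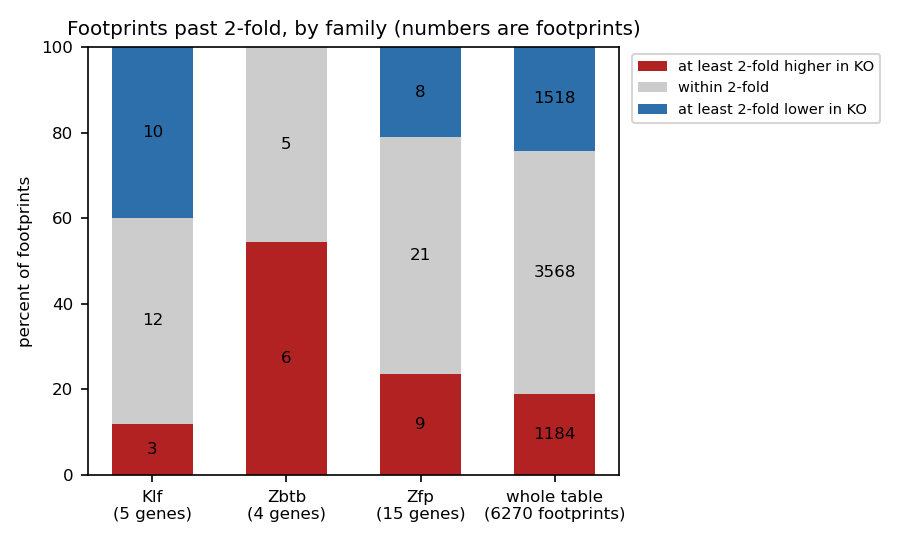
Percent of footprints at least 2-fold higher in KO (red), within 2-fold (grey) and at least 2-fold lower in KO (blue) in the Klf, Zbtb and Zfp families and in the whole table, with the number of footprints in each block. Klf footprints had 3 higher and 10 lower, Zbtb footprints 6 higher and 0 lower, and Zfp footprints 9 higher and 8 lower.

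The 3′ UTRs of the 5 Klf genes had lower summed occupancy in KO than in WT in each case (against 52.2% of all genes), 2 of them past 2-fold (against 17.9%). Of 25 Klf footprints, 17 were lower in KO. There were 10 past 2-fold (40.0%, against a background of 24.2%) and 3 higher past 2-fold (12.0%, against 18.9%). The median log2 ratio was -0.62. Of the 25, 12 entered the table through WT libraries alone (at least 2 of WT, at most 1 of KO), a way of entry that favours values low in KO. These 12 held 7 of the 10 lower calls and 2 of the 3 higher ones, and over all footprints that entered so 37.5% were lower past 2-fold and 9.99% higher. All 25 were held by at least 2 WT libraries, and 13 by at least 2 KO libraries. Of those 13, 1 was higher and 3 lower past 2-fold, with a median of -0.36. In the table as a whole, footprints held by at least 2 libraries of both genotypes had a median of 0.42, with 26.2% higher and 5.01% lower past 2-fold, a set that leaves out footprints of few KO libraries by construction. Without Klf6, 6 of 11 Klf footprints were past 2-fold lower.

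Klf6, a factor induced early in inflammatory macrophages, carried 14 footprints spread over its 3′ UTR of 3110 nt. The summed occupancy, 5.45 in KO and 8.55 in WT, gave a log2 ratio of -0.65. In KO the single footprints ran from 0 to 0.841 with a median of 0.430, and in WT from 0.111 to 1.95 with a median of 0.485. Of the 14, 11 were lower in KO, 4 of them past 2-fold. The strongest in both genotypes lay 464 nt past the stop codon (chr13:5866961-5867025), with 0.841 in KO and 1.95 in WT, a ratio of -1.21. It was held by all 6 libraries. So was the footprint with the miR-21 site (chr13:5867238-5867305), with 0.439 in KO and 0.776 in WT. The footprint with the miR-101 site had 0.694 in KO and 1.05 in WT, and was held by 3 KO and 2 WT libraries. One footprint went the other way past 2-fold, 2212 nt past the stop codon, with 0.304 in KO and 0.111 in WT. The last, 2963 nt past the stop codon, was listed at 0 in KO, with 0.389 in WT. The KO and WT values of the 14 footprints had a rank correlation (Spearman) of 0.77, as a description over footprints that share libraries and a transcript.

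Klf13, a regulator of chemokine expression in lymphocytes, had the highest mean summed occupancy of the 24 genes. Of its 6 footprints 3 were higher and 3 lower in KO, and the sum (6.85 in KO and 7.98 in WT) was within 2-fold. The last, 4938 nt past the stop codon in a 3′ UTR of 5157 nt (chr7:71031419-71031494), had 3.17 in KO and 1.61 in WT. It made up 46.3% of the occupancy of the gene in KO and 20.2% in WT. The strongest in WT, 3884 nt past the stop codon, had 0.806 in KO and 2.12 in WT. The first, 72 nt past the stop codon, had 0.638 in KO and 1.88 in WT, and was held by 0 KO and 3 WT libraries. The fifth, 4529 nt past the stop codon, had 0.584 in KO and 0.155 in WT (2 libraries of each genotype). The sources used here do not say how a KO value above 0 arises where no KO library held the footprint. Such values stood under 8 of the 74 footprints (10.8%, against 23.3% of all footprints).

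Klf10, an early gene induced by TGF-β, had 3 footprints. The first had 0.797 in KO and 0.302 in WT, the second, with the miR-17 site, 0.342 in KO and 0.329 in WT, and the third 0.277 in KO and 0.872 in WT. The order of the 3 was thus reversed between the genotypes, and the sum was close, 1.42 in KO and 1.50 in WT. Each was held by 1 KO and 2 WT libraries. Klf3, a repressor that binds CtBP, had a single footprint with 0.752 in KO and 2.41 in WT, a ratio of -1.68 (chr5:65220574-65220640). Klf2, which restrains inflammatory activation of macrophages, had a single one with 0.120 in KO and 0.248 in WT, a ratio of -1.03 (chr8:74844945-74845007). Both were held by 1 KO library and 2 WT libraries.

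**Figure D3:**
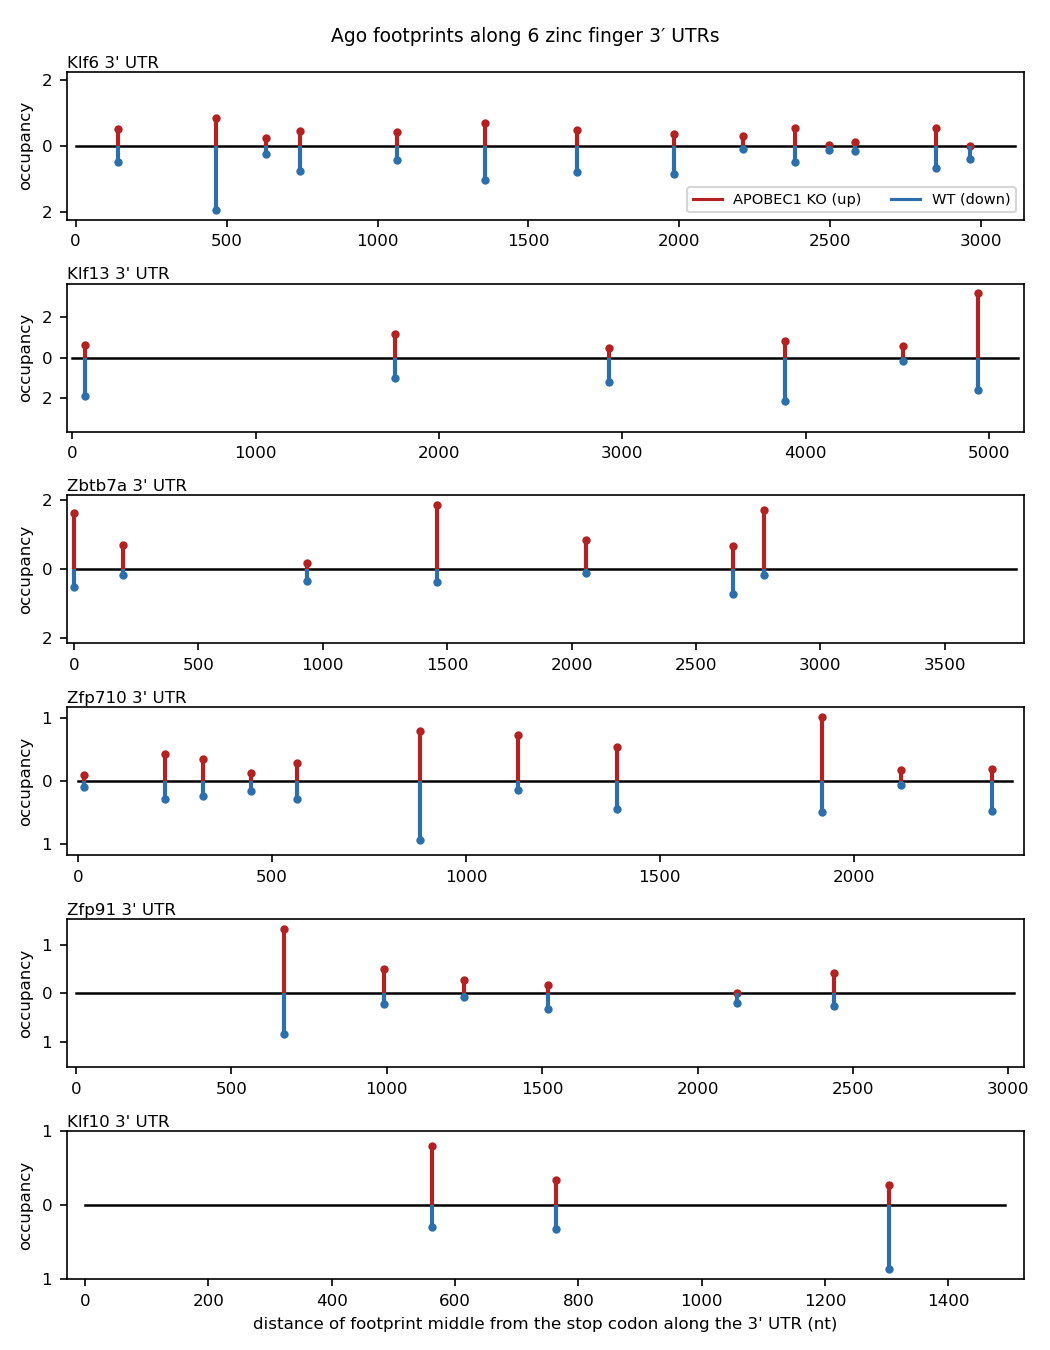
Occupancy of each footprint of Klf6, Klf13, Zbtb7a, Zfp710, Zfp91 and Klf10 (KO upward in red, WT downward in blue) against the distance in nt of its middle from the stop codon; the black line spans the annotated 3′ UTR. Klf6 is taller on the WT side at 11 of 14 positions, and Zbtb7a on the KO side at 5 of 7.

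The Zbtb family had 6 of its 11 footprints at least 2-fold higher in KO (54.5%, against a background of 18.9%) and 0 at least 2-fold lower (against 24.2%). Of these 6, 5 lay on Zbtb7a and 1 on Zbtb7b. Of the 6, 5 entered the table through at least 2 KO libraries and 1 WT library, a way of entry that favours values high in KO. Over all 6270 footprints, 321 (5.12%) entered through at least 2 KO and fewer than 2 WT libraries. Of those, 72.9% were at least 2-fold higher in KO and 0 at least 2-fold lower. Among the 6 Zbtb footprints held by at least 2 WT libraries, 1 was at least 2-fold higher. That 1 was held by at least 2 libraries of both genotypes, where 26.2% of all footprints were higher past 2-fold. The other 5 entered through WT libraries alone, and 0 of them were higher, against 9.99% of all footprints with that entry.

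Zbtb7a, a repressor that guides lineage choice in blood cells and also silences fetal globin genes, summed to 7.66 in KO and 2.32 in WT over 7 footprints (log2 ratio 1.72). The footprint across the stop codon (chr10:80611144-80611212) had 1.64 in KO and 0.502 in WT, and was held by 2 libraries of each genotype. The others past 2-fold were held by 2 KO libraries and 1 WT library each. The one at 1460 nt had 1.87 in KO and 0.352 in WT. The one at 2056 nt had 0.854 in KO and 0.0962 in WT, and that at 198 nt 0.716 in KO and 0.147 in WT. All 3 were thus several-fold higher in KO. The one at 2774 nt, with the miR-15/16 site, had 1.72 in KO and 0.166 in WT, the highest ratio of the 74 (3.36). The other two were not higher in KO. At 2648 nt the values were 0.689 in KO and 0.722 in WT, and at 938 nt they were 0.176 in KO and 0.337 in WT. The footprints higher in KO were also the richer in G+C, each at 47.8% or above, against 42.4% and 31.9% for the other two. The rank correlation of the KO with the WT values was -0.04 over these 7. The footprint at 1460 nt was the strongest in KO, and that at 2648 nt the strongest in WT.

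Zbtb7b, which directs CD4 T cell fate, had 2 footprints near the end of its 3′ UTR. The first had 0.744 in KO, against 0.102 in WT (2 KO libraries and 1 WT library). The second had 1.50 in KO and 1.57 in WT, held by 1 KO and 3 WT libraries. The Zbtb34 footprint with the miR-23 and miR-27 sites had 1.65 in KO and 1.99 in WT, and was held by 1 KO and 3 WT libraries. Zbtb43 had 0.602 in KO and 0.561 in WT. None of these 3 genes was past 2-fold by its sum.

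Among the 15 Zfp genes, 11 had a higher summed occupancy in KO (against 47.8% of all genes) and 4 a lower one (against 52.2%). The median gene ratio was 0.48, against -0.04 for all genes. Past 2-fold were Zfp703, Zfp871 and Zfp622 (higher) and Zfp664 (lower). Of the 38 footprints, 9 (23.7%) were at least 2-fold higher in KO and 8 (21.1%) at least 2-fold lower, against 18.9% and 24.2%. Of those 8, 5 were listed at 0 in KO. The 15 held by at least 2 libraries in each genotype gave 4 higher and 0 lower past 2-fold, against 26.2% and 5.01% of all such footprints. Their median was 0.48, against 0.42 in the table.

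Zfp703 had a single footprint (chr8:28090707-28090769) with 1.79 in KO and 0.175 in WT (3.35). It was held by 2 KO libraries and 1 WT library. Zfp871 had 2 footprints. The one with the miR-24 site had 2.83 in KO and 0.645 in WT, a ratio of 2.13, and was held by 2 libraries of each genotype. The other, 1955 nt past the stop codon, was listed at 0 in KO and had 0.445 in WT. Zfp622, a factor in maturation of the large ribosomal subunit, had a single footprint with a miR-15/16 site, at 0.796 in KO and 0.334 in WT (1.25; 1 KO and 2 WT libraries). Zfp664 had 0.142 in KO and 0.658 in WT in its first footprint, and 0 in KO and 0.473 in WT in its second. No KO library held either, and the sum gave a ratio of -2.98.

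Zfp710 carried 11 footprints over a 3′ UTR of 2408 nt, and 8 of them were higher in KO. The sum was 4.80 in KO and 3.55 in WT, a ratio of 0.43. In KO the footprints ran from 0.0967 to 1.02 with a median of 0.356, and in WT from 0.0627 to 0.927 with a median of 0.283. The footprint with the let-7 site (chr7:87237115-87237177) was the strongest in KO, with 1.02 in KO and 0.483 in WT, and was held by all 6 libraries. That at 882 nt was the strongest in WT, with 0.805 in KO and 0.927 in WT. The widest difference was at 1133 nt, with 0.728 in KO and 0.138 in WT (2.39; 2 libraries of each genotype). The fourth, with the miR-15/16 site, had 0.127 in KO and 0.147 in WT. The last footprint had 0.203 in KO and 0.468 in WT, and it was also the poorest in G+C of the 11, at 27.9%.

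Zfp91, an atypical ubiquitin ligase of non-canonical NF-κB signalling, had 6 footprints and a sum of 2.68 in KO and 1.95 in WT (0.46). The one with the miR-29 site was the strongest in both genotypes, with 1.33 in KO and 0.838 in WT. The one with a miR-146 site had 0.494 in KO, against 0.231 in WT, and the one at 1247 nt 0.271 in KO and 0.0792 in WT. The fifth was listed at 0 in KO, with 0.212 in WT. The fourth, with a let-7 site, had 0.172 in KO and 0.327 in WT and was held by no KO library. The first 3 footprints were thus higher in KO, the next 2 lower, and the last again higher, with 0.413 in KO and 0.260 in WT.

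**Figure D4:**
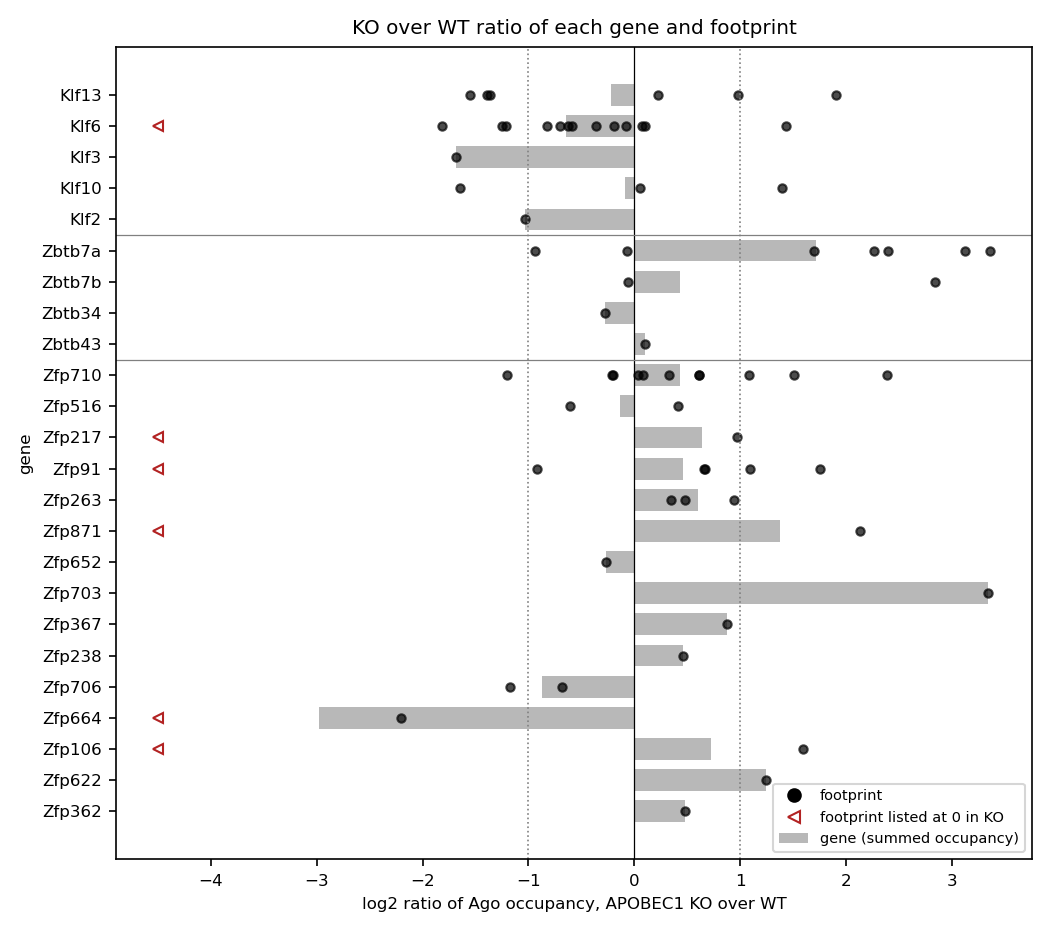
Log2 ratio of KO over WT for the summed occupancy of each gene (grey bars) and for each footprint above 0 in KO (points), with footprints listed at 0 in KO as open triangles and dotted lines at 2-fold. The 5 Klf bars point to lower values in KO, from -0.08 to -1.68, and 11 of the 15 Zfp bars to higher values. Of all genes, 52.2% were lower in KO and 47.8% higher.

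Zfp217, an oncogenic partner of CtBP, had 3.25 in KO and 1.66 in WT in a footprint 104 nt past the stop codon. Its other footprint, with a miR-17 family site, was listed at 0 in KO and had 0.418 in WT. Zfp106, an RNA-binding protein needed by motor neurons, showed a similar split, with 0.785 in KO and 0.259 in WT in 1 footprint and 0 in KO and 0.214 in WT in the other, which held a miR-101 site. Zfp516, an activator of brown fat genes, had 2.08 in KO and 1.56 in WT in its first footprint. Its second, with a miR-19 site, had 1.69 in KO and 2.58 in WT. The 3 footprints of Zfp263 were all higher in KO and within 2-fold, with 0.640, 0.869 and 0.926 in KO, against 0.503, 0.622 and 0.480 in WT. The remaining Zfp genes were within 2-fold by sum. Zfp652, a repressor that binds ETO family proteins, had 1.25 in KO and 1.51 in WT, with a miR-29 site. Zfp367 had 1.21 in KO and 0.659 in WT. Zfp238, a neural repressor that also has a BTB domain, had 0.851 in KO and 0.619 in WT, and Zfp362 0.643 in KO and 0.460 in WT, in a footprint that no KO library held. Zfp706 had a sum of 0.489 in KO and 0.898 in WT, and no KO library held its 2 footprints.

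At least 2 KO libraries held 36 of the 74 footprints, 48.6% (95% Wilson interval 37.6% to 59.8%), against a background of 40.1%. At least 2 WT libraries held 67, 90.5% (81.7% to 95.3%), against 94.9%. Entry through WT alone accounted for 38 of the 74 (51.4%, against 59.9% of all footprints). Through KO alone came 7 (9.46%, against 5.12%), and through both 29 (39.2%, against 35.0%). Of the 38, 15 (39.5%) were at least 2-fold lower in KO and 5 (13.2%) at least 2-fold higher, against 37.5% and 9.99% of all footprints with the same entry. All 7 of those that entered through KO alone were at least 2-fold higher, against 72.9%. Calls went with the way of entry over the whole table too, and footprints that met neither condition are outside it. All 6 libraries held 3 footprints (4.05%, against 5.89% of all footprints), 2 of Klf6 and 1 of Zfp710. No KO library held 14 (18.9%, against 27.9% of all footprints). KO occupancy was listed at 0 for 6 footprints (8.11%, against 4.63%), and WT occupancy for 0.

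The Spearman correlation of G+C content with the log2 ratio was 0.38 over the 74 and 0.32 over all 6270, as a description over footprints that share libraries. By family it was 0.32 for the 25 Klf, 0.58 for the 11 Zbtb and 0.18 for the 38 Zfp footprints. Median G+C content was 42.9% for Klf, 47.8% for Zbtb and 45.1% for Zfp, against 42.9% in the table. In the lowest tercile of the table by G+C (under 38.6%), 10 Klf footprints had a median ratio of -1.02, 10 Zfp footprints -0.29 and the 1 Zbtb footprint -0.93, against -0.54 for all footprints of that tercile. In the middle tercile 7 Klf footprints had 0.10, 4 Zbtb footprints 0.02 and 13 Zfp footprints 0.48, against -0.03. In the highest tercile (from 47.3%), 8 Klf footprints had -0.27, 15 Zfp footprints 0.41 and 6 Zbtb footprints 2.33, against 0.41 for all. The part of base composition in these ratios was not tested.

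**Figure D5:**
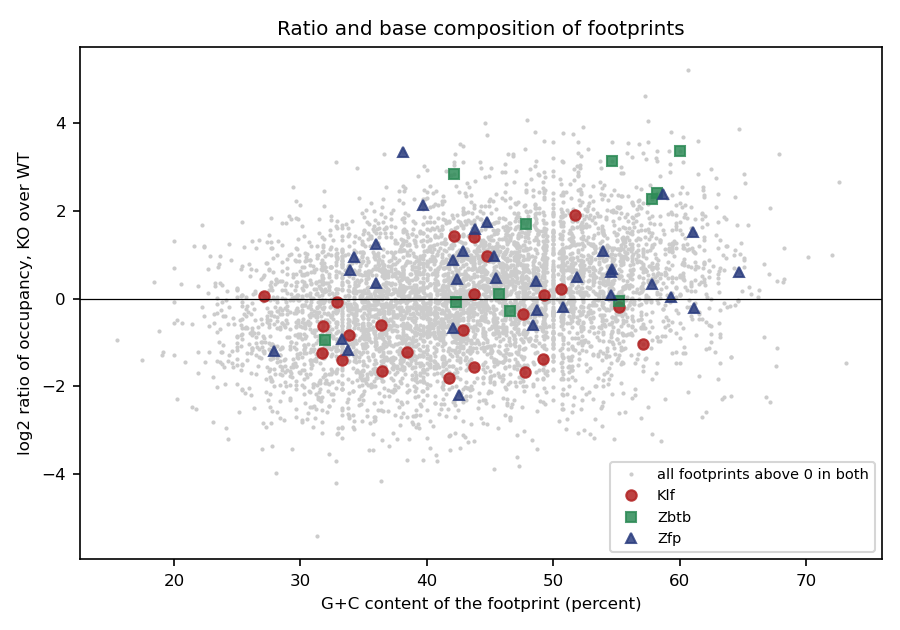
Log2 ratio of KO over WT against the G+C content of the footprint in percent, for all footprints above 0 in both genotypes (grey dots) and for those of the Klf (circles), Zbtb (squares) and Zfp (triangles) genes. The Spearman correlation is 0.32 over the table and 0.38 over the 74 (0.18 for Zfp alone). It includes the footprints listed at 0 in KO, which are not drawn. Klf circles lie mostly under 0.

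Other C2H2 genes, whose symbols the rule does not take, were mostly within 2-fold. Of 82 listed, 17 had footprints, 68 in all, and their median gene ratio was -0.02. Only Plagl2 was at least 2-fold higher (26.4 in KO and 12.0 in WT over 11 footprints), against 11.7% of all genes. Gzf1, listed at 0 in KO with 1.07 in WT, was the 1 gene past 2-fold lower, against 17.9%. Zeb2, a macrophage repressor with 12 footprints, had 21.6 in KO and 21.5 in WT, and Ikzf1, the lymphoid and myeloid regulator Ikaros, had 8.08 in KO and 7.20 in WT. Of 28 listed partners of C2H2 factors, 9 had footprints, 5 at least 2-fold lower in KO and 1 higher, against backgrounds of 17.9% and 11.7%. The lower ones included Gatad2b and Chd4, subunits of the NuRD repressor. Gatad2b had 0.235 in KO and 1.59 in WT, and Chd4 had 0.255 in KO and 0.631 in WT. Lower too were the acetyltransferase Ep300 (0.274 in KO and 1.56 in WT) and Atf7ip, a partner of the histone methyltransferase Setdb1 (0.828 in KO and 2.31 in WT). Rbx1, a cullin ligase subunit, was higher, with 0.736 in KO and 0.214 in WT. The heterochromatin protein Cbx5 had a sum of 10.3 in KO, against 6.19 in WT.

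Of 10 macrophage markers, 8 carried footprints, among them Csf1r, Itgam and Emr1, which encodes F4/80. None was past 2-fold (11.7% of all genes were higher and 17.9% lower). Cd68 and Mertk had none. Lists of 5 markers each for T cells, B cells, neutrophils, dendritic cells and stromal fibroblasts had 0 genes with a footprint. The osteoclast list had 1, Nfatc1 (1.72 in KO and 1.25 in WT). Only 9.77% of all coding genes had a footprint, so 0 in a list of 5 does not show that such cells were absent. Apobec1 had 3 footprints, with a sum of 0.312 in KO and 0.372 in WT, and since the removed part of the gene is not named in the labels, this is no check of the genotype. Zfp385a, whose symbol ends in a letter and which the rule does not take, had 2 footprints with a sum of 2.84 in KO and 1.42 in WT, just under 2-fold.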

How the data were processed

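Ago footprints were measured in 3 KO and 3 WT macrophage libraries, grouped by their titles. The authors, per the text on the design, aligned reads to mm9, joined overlapping mRNA reads into clusters, took a footprint around each cluster peak and deposited its occupancy as a ratio to RNA-Seq expression. The submitters' processing notes name Bowtie 0.12.8 and bedtools. The sources used here do not give how libraries were combined. Deposited numbers of libraries run from 0 to 3.

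Footprints were placed on NCBIM37 (the assembly of mm9) with GENCODE vM1, and coordinates count from 1. Positions along a 3′ UTR use the coding transcript with the longest 3′ UTR that the footprint overlaps. Log2 ratios use a pseudocount of 0.00161, 50% of the smallest value above 0, and understate differences of low values. Gene values are sums over footprints. Sequences were read with pysam 0.24.0 and samtools 1.23.1, and the scripts were tested on simulated data. Wilson intervals describe footprints, which are not replicates.

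Named genes were all Klf genes, those with the highest occupancy, most footprints or ratios past 2-fold, and those with a footprint in all 6 libraries or a seed site; other genes of the 24, and Zeb2, Ikzf1 and Cbx5, were added after their values were seen. The members and lists were chosen with earlier results of these data known.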

Additional observations from a re-analysis of the deposited data

How the results depend on the processing

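No paired analysis was possible because the table gives 1 combined value per genotype, and for the same reason no library could be left out. With a pseudocount of 1, 4 footprints were at least 2-fold higher and 0 lower in KO (Klf 0 lower, Zbtb 2 higher), and 2 genes were higher and 0 lower; over all footprints 1.66% were then higher and 2.03% lower. With at least 2 libraries of both genotypes, 6 of 29 footprints were higher and 3 lower, against 26.2% and 5.01% of all such footprints. The 3 lower were all Klf, and 1 of 1 Zbtb footprints was higher. By gene, 2 of 10 were higher and 0 lower. With the mean of KO and WT not below the median of the table, 12 of 45 footprints were higher and 7 lower (20.9% and 20.0% of all such footprints). The even split of the footprint calls thus did not hold there. By gene, 5 of 21 were higher and 1 lower. Shares over all genes were not computed under these other settings or at 3-fold, so nothing is read from the gene counts. With Zfp symbols alone, 9 footprints were higher and 8 lower, and 3 genes higher and 1 lower. At 3-fold, 12 footprints were higher and 10 lower (8.79% and 14.1% of all), and 2 genes higher and 2 lower. Without Klf6, 6 Klf footprints were lower; without Zbtb7a, or with at least 2 WT libraries, 1 Zbtb footprint was higher. Apart from the pseudocount, these settings use fewer footprints or a stricter limit by construction. The share held by 1 library or more was 81.1% in KO and 100% in WT. Over all 6270 footprints, 27.9% were held by no KO library and 29 footprints by no WT library. All 3 KO libraries held 9.46% of the 74 (806 of all 6270), and all 3 WT libraries 16.2% (964 of all 6270). At high occupancy 66.7% were held by at least 2 KO libraries, and the share of all such footprints was not computed. Seed sites were in 6.76% with an 8-nt match (7.43% of all footprints), 51.4% with a 6-nt match (47.9%) and 14.9% in the central 46 nt (12.4%). The median log2 ratio kept its sign, from 0.01 to 0.43, but its place beside the table did not hold. In the main setting it was above that of the table (0.06 against -0.04). With at least 2 libraries of both genotypes it was below that of all such footprints (0.23 against 0.42). Adding Zfp385a, chosen after the data were seen, like the Klf and Zbtb counts, moved no count by over 1.5 times. Past 2-fold, Zbtb7a and Zfp703 stayed so with a pseudocount of 1, and Klf2, Klf3, Zfp622, Zfp664 and Zfp871 did not. Without read counts, the limits set by depth are unknown.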
